A study of Mus musculus with 8 samples.

Results

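The transcriptome of control (CTR) mesenchymal stem and progenitor cells (MSPCs) of mouse bone marrow was described from the 4 CTR libraries among the 8 bulk RNA-seq libraries of the series. Each library came from the MSPCs of 1 mouse. The 4 were chosen by their genotype label alone, and no genotypes were compared. The CTR mice carried Flk2-cre and 1 floxed Cxcr4 allele (Flk2-cre+ Cxcr4fl/+) on a C57BL/6 background, so that Cre was present in these controls too. Flk2-cre is active in hematopoietic progenitors and their descendants, and its transgene lies on the Y chromosome. The labels give an age of 6 weeks, which is below the age range in the study's methods. Bone marrow cells were digested, depleted of hematopoietic cells, and sorted in 2 rounds for PDGFRα and SCF-GFP among cells without CD45, Ter119, CD31 or CD144. GFP is expressed from the Kitl locus in the reporter, and the counts do not tell a reporter allele of Kitl from an intact one. The genotype given above does not name this reporter allele. In other mice the paper used a Kitl-GFP allele to lower SCF protein.

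MSPCs of this kind lie along the sinusoids of the marrow and are also known as CXCL12-abundant reticular or Lepr+ cells. They are the main source of the chemokine CXCL12, which holds hematopoietic stem cells in the marrow, and of membrane-bound stem cell factor (SCF, encoded by Kitl), which maintains them. Lineage tracing has shown that they give rise to adipocytes and osteoblasts in adult marrow.

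Total counts ranged from 31047344 to 37682465 per library, and 18366 to 19868 genes had a count. Protein-coding genes held 97.4% to 97.7% of the counts and mitochondrial genes 0.545% to 0.653%. Of the 52636 genes in the table, 12181 reached 1 CPM (a count per 1000000 counts of the library) in every CTR library, and 9411 had a mean of 10 CPM or more. CPM are scaled by the trimmed mean of M values (TMM), and errors are SDs over 4 mice. One library stood apart in part of its genes: CTR3 held 7856 counts of immunoglobulin genes, where the others held 47 to 87.

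Cxcl12 had the most reads of all genes in these cells, at 44610 ± 4370 CPM. It alone took 4.02% to 4.96% of all counts in a library. Igfbp4, which binds insulin-like growth factors, had 14319 ± 2158 CPM, and Igfbp5 of the same family had 9514 ± 956 CPM. Ibsp, the bone sialoprotein gene, had 9911 ± 1621 CPM. The 20 most abundant genes included the protease inhibitors Serpine2 and Serping1, the lipase gene Lpl, the TAM receptor ligand gene Gas6, haptoglobin (Hp), the matrix genes Tnc, Col1a2 and Sparc, the antioxidant gene Gpx3, the chemokine gene Cxcl14 and the ferritin gene Fth1. They also held Lepr, Vcam1 and the class I antigen presentation genes H2-D1, H2-K1 and B2m. Among the 20 the coefficient of variation (CV, SD over mean) between mice was lowest for B2m, at 3.97%, and highest for Lpl, at 31.4%. The 10 most abundant genes held 12.7% ± 0.363 of the counts, the first 100 held 31.3% ± 0.327, and the first 1000 held 59.2% ± 0.444. Of the first 100, 97 were protein coding.

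**Figure D1:**
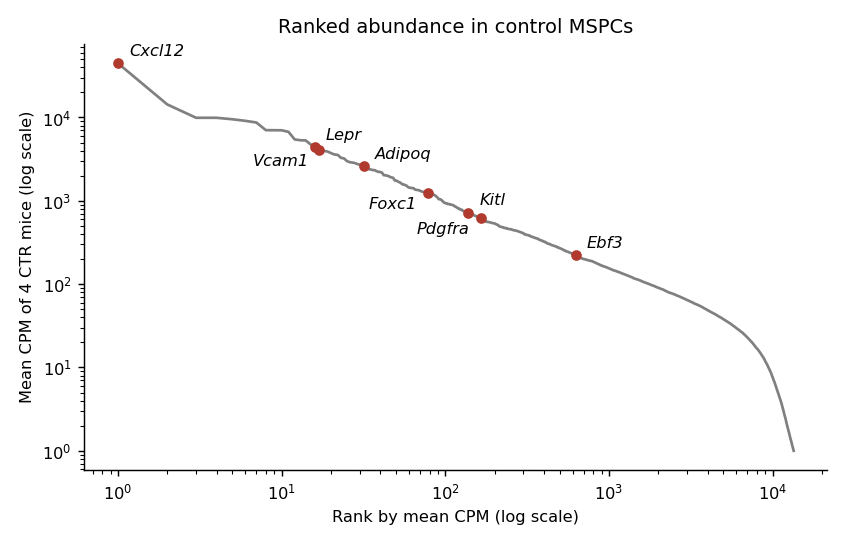
Mean CPM of each gene with at least 1 CPM (grey line) against its rank, both on log scales, with the 8 niche cell markers as red points. Cxcl12 is at rank 1, Lepr and Vcam1 are at 16 and 17, and Ebf3, the lowest of the markers, is at 626.

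CPM is a share of reads and grows with transcript length. To compare genes, counts were divided by the exon length of the gene and scaled to a total of 1000000 per library (TPM). The exon length joins the exons of all annotated transcripts of a gene, with 8176 bases for Cxcl12 and 860 for B2m. Orders and ratios in TPM therefore depend on the annotation. On this scale Cxcl12 came behind B2m, with 18420 ± 1658 against 20836 ± 849 TPM. Gm23935, a miRNA gene model of 57 bases, was listed above both at 24350 ± 3687 TPM, but on so short a model the level per length is uncertain. Ibsp (16209 ± 2800 TPM), Hp (14779 ± 3161 TPM), H2-D1, Serping1, Igfbp4, Gas6 and Gpx3 (8858 ± 1088 TPM) completed the 10 highest. H2-D1 and H2-K1 are close paralogs between which reads can be split, so that their separate levels are uncertain.

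The sequences before the starts of the 2 genes with the highest CPM, Cxcl12 and Igfbp4, and of Adipoq, the marker next to Cxcl12 per length, are shown with the matches of 3 motifs in capitals. Each line gives the 250 bases before the RefSeq start on GRCm38.p6, 5′ to 3′ on the gene's strand, which is the plus strand for all 3. Searched on both strands were TATAAA, the C/EBP motif TTGCNNAA and CCAAT.
Cxcl12 (chr6:117168285-117168534): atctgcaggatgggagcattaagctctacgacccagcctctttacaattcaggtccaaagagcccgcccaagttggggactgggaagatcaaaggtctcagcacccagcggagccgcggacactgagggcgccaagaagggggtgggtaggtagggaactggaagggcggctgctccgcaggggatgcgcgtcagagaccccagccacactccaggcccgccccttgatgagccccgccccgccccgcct
Igfbp4 (chr11:99040994-99041243): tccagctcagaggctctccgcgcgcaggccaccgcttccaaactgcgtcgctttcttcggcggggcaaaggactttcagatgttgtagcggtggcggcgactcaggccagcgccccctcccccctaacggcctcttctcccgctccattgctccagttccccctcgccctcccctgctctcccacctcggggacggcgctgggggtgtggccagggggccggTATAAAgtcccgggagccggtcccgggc
Adipoq (chr16:23146286-23146535): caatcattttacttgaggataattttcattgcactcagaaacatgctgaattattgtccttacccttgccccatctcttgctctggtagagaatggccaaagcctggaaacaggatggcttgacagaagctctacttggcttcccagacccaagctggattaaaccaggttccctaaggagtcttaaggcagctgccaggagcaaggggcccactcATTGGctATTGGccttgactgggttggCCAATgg
Cxcl12 had no match to any of the 3 motifs in this window. Igfbp4 had TATAAA 28 bases before its start, and Adipoq had CCAAT or its reverse complement at 34, 27 and 7 bases. Over the same window of 27025 promoters in the RefSeq table, TATAAA occurred in 13.0%, CCAAT in 34.5% and TTGCNNAA in 9.55%. A match is a match of letters and not a bound site. Of the 8 markers, 7 had an entry in the table.

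All 8 markers of the niche cells were high in every mouse. Kitl, through its GFP reporter, and Pdgfra were part of the sort gate, so they do not bear on the label as MSPCs. The label holds on the other markers. By CPM Adipoq (2634 CPM) came behind Lepr (4403 CPM) and Vcam1 (4085 CPM). Per length the markers fell in the order Cxcl12, Adipoq, Lepr, Vcam1, Foxc1, Kitl, Pdgfra and Ebf3. Each marker lay above the next in 4 of 4 mice, and the values of no neighboring pair overlapped. Their lowest level, 81.2 TPM for Ebf3, compares with a median of 21.2 TPM over the 12181 genes at 1 CPM in every library.

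Cxcl12 (ENSMUSG00000061353.11, chromosome 6 of GRCm38 from 117168535 to 117181367) had 18626, 16351, 20398 and 18304 TPM in CTR1 to CTR4. Adipoq (chromosome 16, 23146536 to 23158028), which encodes the adipokine adiponectin, had 6629, 4866, 8035 and 6210 TPM. CTR3 was highest and CTR2 lowest for both genes. Lepr (chromosome 4, 101717404 to 101815352), the leptin receptor gene, had 1804, 2087, 2280 and 2270 TPM. Vcam1 (chromosome 3, 116109949 to 116129688), an adhesion molecule that binds integrins of hematopoietic cells, had 1374, 1518, 1683 and 1647 TPM. Lepr and Vcam1 ranked the 4 mice alike, with CTR1 lowest and CTR3 highest.

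The transcription factor gene Foxc1 (chromosome 13, 31806633 to 31812476), needed for the niche cells to form, had 619, 799, 670 and 774 TPM. Kitl (chromosome 10, 100015630 to 100100416) had 428, 368, 310 and 543 TPM. Its CV of 22.6% was the largest of the 8 markers, with CTR4 highest and CTR3 lowest. Pdgfra (chromosome 5, 75152292 to 75198215), whose product was part of the sort gate, had 211, 206, 185 and 236 TPM. Its CV of 8.34% was the lowest of the 8. Ebf3 (chromosome 7, 137193673 to 137314445), a transcription factor gene of the same cells, had 88.3, 78.3, 59.8 and 98.3 TPM. As for Kitl and Pdgfra, CTR3 was the lowest and CTR4 the highest library.

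**Figure D2:**
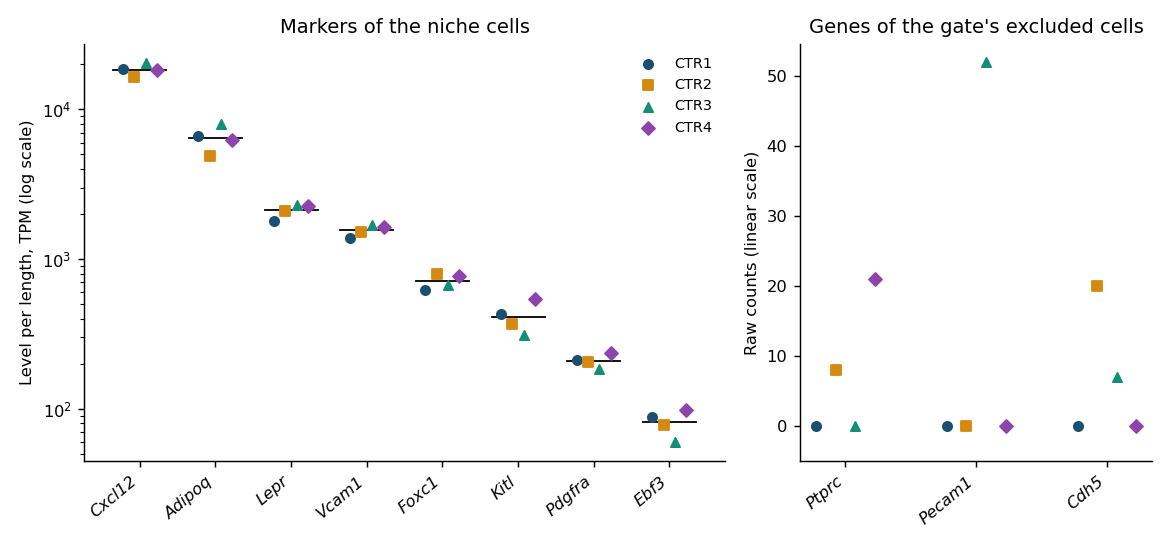
Left, level per length (TPM, log scale) of the 8 niche cell markers in each CTR mouse, with the mean as a black line; right, raw counts (linear scale) of the genes for CD45 (Ptprc), CD31 (Pecam1) and CD144 (Cdh5). The markers lie between 59.8 and 20398 TPM, and the genes of the excluded cells between 0 and 52 counts.

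The 2 factors that define the niche for stem cells differed widely in transcript level. Per length, Cxcl12 was 46.9 ± 13.5 times as high as Kitl (SD, n = 4 mice), with 43.5, 44.5, 65.7 and 33.7 in CTR1 to CTR4. The cells were sorted by a GFP reporter at the Kitl locus, and its effect on the Kitl counts was not tested. Of 45 niche factor genes examined, 32 (71.1%) had a mean of 10 CPM or more, against 41.8% of all protein-coding genes. The median level of the list was 71.4 TPM. The median CV of its members of 10 CPM or more was 21.7%, against 14.7% over all 9411 genes at that level.

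Among chemokines, Cxcl14, with 5987, 8773, 7460 and 7154 TPM, came next to Cxcl12. The per length ratio of Cxcl12 to Cxcl14 was 2.57 ± 0.522. Ccl2, which draws monocytes, had 109 TPM and Ccl19 71.4 TPM, so that both were minor beside them. Among growth factors for hematopoietic and bone cells, Gas6 had the highest level, with 9317 ± 1221 TPM. Csf1 and Il34, the ligands of the macrophage colony-stimulating factor receptor, had 626 ± 76.8 and 752 ± 78.0 TPM. The values of the 2 ligands overlapped between mice, from 546 to 729 TPM for Csf1 and from 668 to 827 TPM for Il34. Il7, needed by B cell progenitors, had 152, 73.6, 94.5 and 134 TPM and was below Csf1 in every mouse, by 5.90 ± 1.83 times. Angpt1, the angiopoietin ligand of Tek, had 248 ± 46.9 TPM. Bmp6 and Bmp4, bone morphogenetic proteins, had 1088 ± 141 and 563 ± 232 TPM. Bmp4 was high in CTR1 (841 TPM) and low in CTR2 (314 TPM). Tnfsf11, which encodes the osteoclast factor RANKL, had the largest CV of the list above 10 CPM, at 51.1%. It had 163, 435, 184 and 208 TPM, so that CTR2 was above the 3 others. The smallest CV was that of the BMP antagonist gene Grem1, at 5.88%, with 328, 366, 324 and 330 TPM. Clec11a, which encodes the bone growth factor osteolectin, had 155 TPM.

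Some genes of hematopoietic signaling were not detected. The colony-stimulating factor genes Csf2 and Csf3, Dlk1 and the Notch ligand gene Dll4 had 0 counts in all 4 libraries, which allows up to 0.0225 CPM over their 133458700 counts. These limits cover counting error only. Thpo, which encodes thrombopoietin, had 5, 8, 0 and 3 counts, and Il6 had 15, 29, 36 and 59 counts. Lif had 27 to 85 counts. Thpo, Il6 and Lif were thus low, with means of 0.121, 1.02 and 1.81 CPM. Jag1, another Notch ligand gene, had 58.6 CPM.

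Of 41 transcription factor genes tied to niche and mesenchymal cells, 34 (82.9%) had a mean of 10 CPM or more, against 41.8% of all protein-coding genes. The median of the list was 50.8 TPM. Foxc1 had the most counts, and Gli1, a target of hedgehog signaling, had 0 counts in every library. Tcf21 had 16 counts in CTR3 and 0 in the others. The EBF factors were led by Ebf1, at 2.05 ± 0.479 times the level of Ebf3 per length, and Ebf2 had 13.5 TPM. Of the factors of adipocyte differentiation, Cebpb had 471, Cebpa 318 and Pparg 152 TPM. Runx1 (141 TPM) and Runx2 (60.9 TPM), of which Runx2 directs osteoblast formation, were transcribed side by side. Snai2 had 820 and Id3 1174 TPM. Among the genes of the list above 10 CPM, Tead1 had the largest CV, at 45.9%, and Hoxc10 the smallest, at 7.06%. Hoxa10, Hoxa11 and Hoxc10, homeobox genes of limb patterning, had 190.4, 22.8 and 26.2 TPM.

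Nearly all matrix genes were well expressed. Of 30 genes, 29 (96.7%) had a mean of 10 CPM or more, against 41.8% of all protein-coding genes. The summed level of the 30 was 69918 ± 2414 CPM, and their median was 481 TPM. Their spread was small, with a median CV of 9.54%. Igfbp4 was the highest by CPM and Sparcl1 the lowest (7.34 CPM). Bgn, the biglycan gene, had the smallest CV of the list, at 4.29%, and Timp3 the largest, at 48.7%. Col1a2 had 5454 ± 247 CPM, whereas Col1a1, which encodes the other chain of type I collagen, had 386 ± 83.1 CPM. Type I collagen holds more of the product of Col1a1 than of Col1a2. Per length the transcript of Col1a2 was 8.34, 6.26, 9.29 and 6.88 times as high as that of Col1a1 in CTR1 to CTR4, 7.69 ± 1.38 times in the mean. The transcript of Col1a2 was the higher one in 4 of 4 mice. Basement membrane genes were high, with Col4a1 at 897, Col4a2 at 631 and Nid1 at 419 TPM. Fn1, the fibronectin gene, had 10.7 TPM.

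Of 20 genes of the adipocyte lineage, 8 (40%) had a mean of 10 CPM or more, close to the 41.8% of all protein-coding genes. No count in any library was found for 5 of the 20, against 33.5% of all protein-coding genes. Lpl (2560, 1559, 3075 and 1862 TPM), Adipoq, Agt (4277 TPM) and Apoe (2775 TPM) were high. Lpl and Adipoq were lowest in CTR2 and highest in CTR3. Genes of the lipid droplet and of mature adipocytes were low or not detected. Plin1 had 23, 0, 70 and 0 counts, Cidec had 0, 7, 0 and 0 counts, and Lep, Retn, Adig, Pck1 and Ucp1 had 0 counts in all 4. Fabp4, a fatty acid carrier, had 12.9 TPM. The summed level of the list was 15070, 11493, 18034 and 12487 CPM in CTR1 to CTR4, nearly all of it from Lpl, Adipoq, Agt and Apoe.

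Of 20 genes of the osteoblast lineage, 14 (70%) had a mean of 10 CPM or more, against 41.8% of all protein-coding genes. No count was found for 1 of the 20, against 33.5% of all protein-coding genes. Ibsp was the highest, with 15685, 18772, 12489 and 17892 TPM. Spp1, which encodes osteopontin, had 3107 ± 771 TPM, and Wif1, a Wnt inhibitor gene, had 540 TPM. The early genes Pth1r, Alpl, Dlx5, Sp7 and Runx2 had 360, 216, 99.2, 66.4 and 60.9 TPM. Some other genes of the list were low, although Ibsp and Spp1, which mature osteoblasts also express, were high. Bglap and its near-identical copy Bglap2, between which reads can be split, had 39 to 77 and 0 to 65 counts, Dmp1 had 156 to 319 counts, and Sost had 0 counts in every library. The CV between mice was lowest for Col1a2 (4.53%) and highest for Postn (38.4%) among the genes of 10 CPM or more.

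Of 20 cartilage genes, 4 (20%) had a mean of 10 CPM or more, against 41.8% of all protein-coding genes, and 12 had a count in at least 1 library. Acan, Ihh and Matn1 were among the 8 without a count. Comp, the highest, had 83.5 TPM, and Sox9, the main factor of chondrocytes, had 19.1 TPM with a CV of 55.1%. Col2a1, the cartilage collagen gene, had 45, 169, 158 and 27 counts. Of 20 fibroblast genes, 7 reached 10 CPM. Fbn1 (396 TPM), Lum (280.5 TPM), Dcn (219 TPM) and Fap (154 TPM) were among them, while Dpt, Pi16, Clec3b, Pdpn, Thy1 and Tnxb had 0 counts in all libraries. Of 16 mural cell genes, 7 reached 10 CPM. Pdgfrb was the highest, with a level per length 6.68 ± 0.589 times that of Pdgfra. The contractile genes Acta2, Tagln and Myh11 had 6.97, 15.6 and 4.38 TPM, and Cnn1 had 0 counts. Nes had 7 to 26 counts. Among 10 Schwann and neural genes, Ncam1 (58.2 TPM) and S100b (90.3 TPM) were above 10 CPM, and Sox10, the defining factor of the lineage, had 33 counts in CTR2 and 0 in the others.

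**Figure D3:**
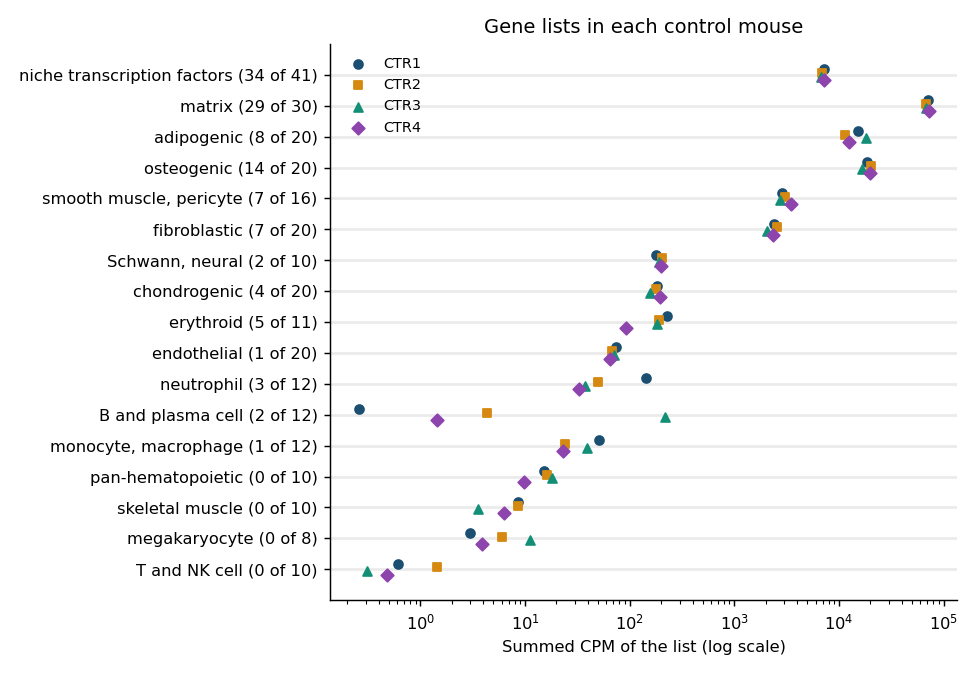
Summed CPM (log scale) of 17 gene lists in each CTR mouse, with the number of list genes at a mean of 10 CPM or more in parentheses. Sums are in reads and grow with gene length, so they compare mice rather than lists; the B and plasma cell list spans 0.257 to 217 CPM, and CTR3 is the high library.

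The cells excluded by the gate left little RNA. Ptprc, the CD45 gene, had 0, 8, 0 and 21 counts, Pecam1 (CD31) 0, 0, 52 and 0 counts, and Cdh5 (CD144) 0, 20, 7 and 0 counts. In the shallowest library a count of 0 allows up to 0.0966 CPM. The 20 endothelial genes summed to 69.5 ± 3.72 CPM, of which Ramp2, a receptor component, made 48.7 ± 3.25 CPM. Ramp2 was the single endothelial gene above 10 CPM, and the receptor genes Flt1 and Tek and the junction gene Cldn5 had 0 counts in all libraries. In bulk RNA, fewer cells of a type and less RNA per cell cannot be told apart.

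The 75 hematopoietic genes matched summed to 351 ± 155 CPM, with 445, 291, 506 and 163 CPM in CTR1 to CTR4. The 4 mice differed by list. Erythroid genes summed to 229.9, 189, 183 and 91.6 CPM, led by the globin gene Hbb-bs, which had 2385, 1475, 1848 and 949 counts. The globin genes are near-identical copies, so that their separate counts are uncertain. Neutrophil genes had 145 CPM in CTR1 and 32.9 to 49.6 CPM in the others. In CTR1 Ngp had 1071 counts and Camp 543, whereas the other libraries had 192 to 272 and 56 to 79. The mean of the neutrophil list was 66.0 CPM with CTR1 and 39.9 CPM without it. Monocyte and macrophage genes summed to 34.4 ± 13.5 CPM, led by the lysozyme gene Lyz2, with 774 counts in CTR1 and 141 to 244 in the others. Megakaryocyte genes summed to 6.00 ± 3.72 CPM, and the 10 T and NK cell genes to 0.710 ± 0.501 CPM, of which 7, Cd3e among them, had no count.

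B and plasma cell genes were near 0 in 3 mice and present in CTR3, with 0.257, 4.31, 217 and 1.44 CPM. Igha, the heavy chain of IgA, had 0, 5, 2945 and 0 counts. Igkc, the kappa light chain, had 0, 20, 2726 and 26 counts, and the variable segment Igkv12-98 had 0, 0, 1346 and 0 counts. Jchain, which joins secreted antibody, had 5, 11, 747 and 0 counts, and Mzb1 of antibody-secreting cells had 99 counts in CTR3 and 0 in the others. The B cell genes Ms4a1 and Rag1 had 0 counts in all 4 libraries. The mean of the list was 55.8 CPM with CTR3 and 2.00 CPM without it. In CTR3 the 8 niche cell markers summed to 65212 CPM, the highest of the 4 mice, of which Cxcl12 made 50110 CPM. By CPM CTR3 was the highest library for Cxcl12, Adipoq, Lepr and Vcam1. It was the lowest for Kitl (551 CPM), Pdgfra (559 CPM) and Ebf3 (166 CPM), and Foxc1 lay between. The part of the immunoglobulin RNA in the marker levels of CTR3 was not tested.

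Among progenitor genes Kit, the receptor of SCF, had 2481, 5157, 3804 and 6073 counts, 129 ± 38.5 CPM. Cd34 and Slamf1 had 0 counts, and Flt3, whose regulatory sequence drives Flk2-cre, had 15 to 64 counts. Cxcr4, the floxed gene, had 19, 14, 13 and 4 counts in these niche cells, too few to check the genotype label. All 10 hepatocyte genes and 7 of 10 skeletal muscle genes had no count. The Y-linked genes Ddx3y, Uty, Eif2s3y and Kdm5d had 535 to 3478 counts in every library, and Xist had 0, 3, 0 and 17 counts.

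Of 20 genes of cell division, 7 (35%) had a mean of 10 CPM or more, near the share of all protein-coding genes, and all 20 had a count in at least 1 library. The list summed to 181 ± 43.9 CPM. The replication genes Pcna (53.5 TPM) and Mcm6 (22.2 TPM) were the highest, while the mitotic genes Mki67, Top2a, Cdk1 and Plk1 had 2.48, 2.74, 1.63 and 2.71 TPM. Immediate early genes, which can be induced within minutes, had 16 of 23 members (69.6%) above 10 CPM, against 41.8% of all protein-coding genes. They summed to 2603 ± 346 CPM, and a rise during digestion and sorting was not tested. Socs3, an inhibitor of cytokine signaling, had the largest number of counts of this list and a CV of 53.0%, with 569, 463, 346 and 1086 CPM. CTR4 was thus above the 3 others. Fos (287 CPM), Jund (267 CPM) and Egr1 (170.1 CPM) had CVs of 23.2%, 9.13% and 13.8%, and the heat shock gene Hspa1a had 0 to 65 counts. Interferon-stimulated genes had 24 of 30 members (80%) above 10 CPM, also against 41.8%, and summed to 2306 ± 373 CPM. Iigp1, an immunity-related GTPase gene, was their highest, at 527 ± 138 CPM. Bst2 had 533 TPM and Ifi27 470.0 TPM, whereas Mx1 and Oas2 had at most 58 counts in a library.

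Over the 9411 genes with a mean of 10 CPM or more the median CV between mice was 14.7%, and 90% of these genes had a CV of less than 31.0%. Counting alone would give a median CV of 2.72%, and the rest holds sorting and library preparation as well as differences between mice, which cannot be told apart. The CV fell with level, from a median of 36.7% at 1 to 10 CPM to 15.7% at 10 to 100, 10.9% at 100 to 1000 and 9.80% above 1000 CPM. The 95 genes above 1000 CPM had a median counting CV of 0.399%, so that depth was not their limit. The CV exceeded 50% in 211 of the 9411 genes (2.24%), and in 0 of the 95. Between any pair of libraries, Pearson's r of log2(CPM + 1) across the 12181 genes was 0.964 to 0.969, and 3.95% to 5.26% of the genes differed by more than a log2 value of 1. This is a correlation across genes, which are not independent replicates.

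**Figure D4:**
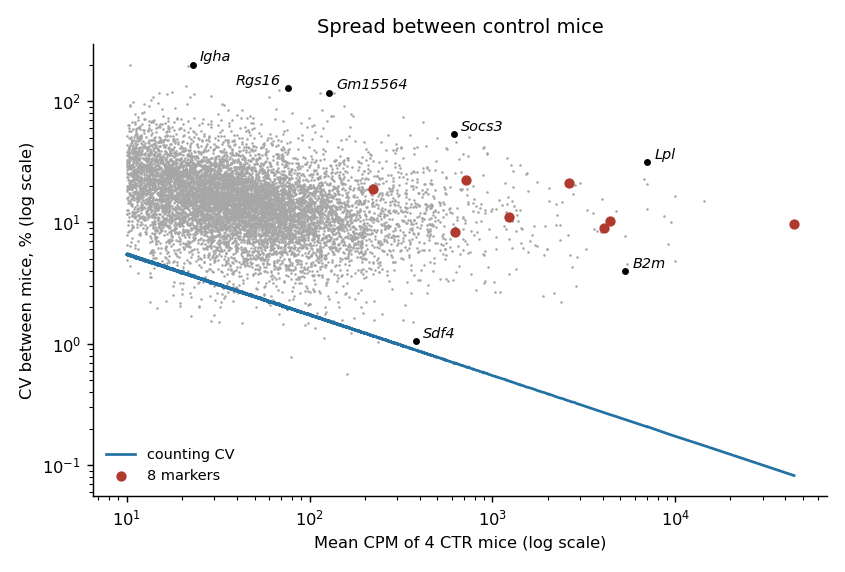
CV between the 4 CTR mice against mean CPM, both on log scales, for 9411 genes (grey), with the 8 markers in red and the CV that counting alone gives as a blue line. The markers lie between 8.34% and 22.6%, and Igha at 199.6% and Sdf4 at 1.05% lie near the ends of the range.

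The genes with the smallest CV were Chst2 (0.562%), Aup1 (0.778%), Eif4g1 (1.03%), Sdf4 (1.05%) and Map2k2 (1.12%). Chst2, a sulfotransferase gene, had 160.0, 160.2, 158.3 and 159.0 CPM, and Eif4g1 encodes a translation initiation factor. For 4 of these 5 the CV lay below that of counting alone.

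The largest CVs came from 3 kinds of genes. Igkv12-98, Igha and Igkc led, with CVs of 200%, 199.6% and 196%, through CTR3 alone. Rgs16, Sept2 and Repin1 were genes with 1 highest mouse, although for Sept2 CTR2 was also above CTR3 and CTR4. Rgs16, a regulator of G protein signaling, had 1185, 532, 935 and 8236 counts. It shares 236 exon bases with Gm28513, and the CV of their sum was 128%. Sept2, a septin of the cytoskeleton, had 5954, 1615, 631 and 429 counts, and Repin1, a zinc finger gene, had 237, 255, 1589 and 236 counts. The highest library was thus CTR4 for Rgs16, CTR1 for Sept2 and CTR3 for Repin1. Gm28036, Pcdhga9, Gm15564 and Gm20716 were gene models of which 3 share exon sequence with another gene.

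For Gm28036 and Pcdhga9 the sum with the overlapping gene had a smaller CV than either gene. For Gm20716 it did not, since its sum with Adnp had a CV of 32.3% against 13.9% for Adnp alone. Pcdhga9 had 5748, 8703, 36 and 74 counts, and Pcdhgb4, which shares 2116 exon bases with it, had 1634, 485, 8768 and 10258 counts. Their CVs were 118% and 90.7%, and the CV of their sum was 7.46%. Pcdhga9 and Pcdhgb4 belong to the clustered protocadherins, which join different first exons to the same last exons. Gm28036 had 36, 2003, 631 and 96 counts, with a CV of 133%, and 17.0% in sum with Cpne1. Among overlapping genes at lower places by CV, chosen after their values were seen, Gm49322 had a CV of 4.51% in sum with Scamp4, but Pakap had 33.9% in sum with Akap2 (33.4% for Akap2 alone) and Pcdhga2 had 86.4% in sum with Pcdhgb4. How reads from exons shared by such pairs were counted was not determined, so the separate levels of the 2 models are uncertain. Across all genes such overlap did not mark high CVs: 26 of the 100 genes with the largest CV overlapped a gene of at least 1 CPM, against 28.1% of the 9411.

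**Figure D5:**
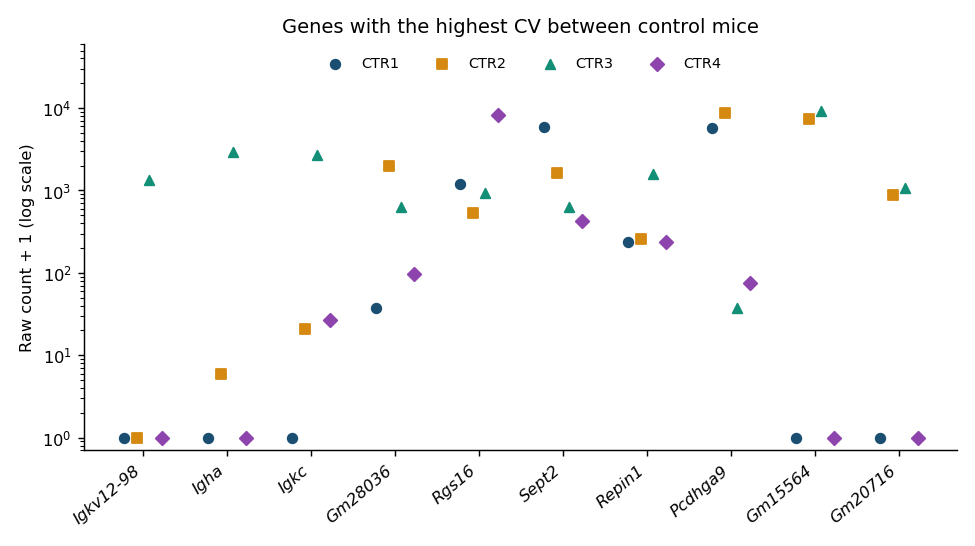
Raw counts plus 1 (log scale) in each CTR mouse of the 10 genes with the highest CV among those with a mean of 10 CPM or more. Igkv12-98, Igha and Igkc are high in CTR3, Rgs16 in CTR4, and Gm15564 and Gm20716 have 0 counts in CTR1 and CTR4.

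Some genes had many counts in 1 library and almost none in another. With at least 100 counts in 1 library and at most 3 in another, 171 genes met this description, 1.38% of the 12390 genes that reached 100 counts. Of the 171, 114 were protein coding and 5 were immunoglobulin segments, and 161 had a mean under 10 CPM. In 125 the low value was in 1 library. The miRNA gene model Gm22133, which lies within the ferritin gene Ftl1, had 8340, 8941, 1 and 1 counts, and Gm15564, an antisense transcript, had 0, 7353, 9244 and 0 counts. H1fx, which encodes a linker histone, had 482, 482, 0 and 474 counts. Gm20716 (0, 876, 1070 and 0 counts), Gm18840 (775, 0, 929 and 1234 counts) and Gm45062 (315, 516, 0 and 895 counts) were similar. The low library thus differed from gene to gene. Whether counting used the strand is not stated, and reads of antisense models cannot be told from those of their partner genes.

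The titles of the libraries carry a number, 78 and 71 for CTR1 and CTR3 and 32 and 27 for CTR2 and CTR4, whose meaning is not given. With edgeR's quasi-likelihood test and Benjamini-Hochberg adjustment, 0 of 15391 genes (0%) had an adjusted p under 0.05 between these pairs of libraries. An unadjusted p under 0.05 was found for 1021 genes (6.63%), and DESeq2's Wald test called 134 of 14197 genes (0.944%). Tlr4, the receptor of lipopolysaccharide, had 300, 2552, 256 and 5401 counts and the smallest adjusted p, 0.0702 in edgeR (log2 fold change -3.66 in CTR1 and CTR3). Tlr4 was chosen after its values were seen. The pairs did not overlap for 38.5% of the 15391 genes. Among the 8 markers they did not overlap for 3, Cxcl12, Adipoq and Foxc1. Adipoq was higher in CTR1 and CTR3, by a log2 value of 0.44 (adjusted p = 0.731 in edgeR), Cxcl12 by 0.20 (adjusted p = 0.847 in edgeR), and Foxc1 lower, at -0.26 (adjusted p = 0.751 in edgeR). The difference in Lpl was 0.75 (adjusted p = 0.619 in edgeR). With 2 libraries on each side, differences smaller than the spread between mice were not detectable.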

How the data were processed

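RNA of sorted MSPCs was sequenced from polyA RNA, and 4 CTR of the 8 libraries were used. The authors trimmed paired reads, aligned them to GRCm38 (mm10) with HISAT2, counted them per gene with HTSeq, and deposited raw counts without normalization. Counts were joined to GENCODE M21 (GRCm38) by Ensembl identifier without version (52489 of 52636 genes), a release that differs from the one in the methods. Ahsp, Cyr61 and Nov of the gene lists had no match. TMM factors (edgeR 4.0.16, R 4.3.3) scaled counts to CPM, and exon lengths gave TPM. A count of 0 was taken to allow 3 counts, which covers counting error only. The title numbers were compared with edgeR over genes with a count in every CTR library (Benjamini-Hochberg, threshold 0.05) after a test on simulated data, and with DESeq2 1.42.0. Other scalings, filters and each library left out were the alternatives.

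The members and lists were chosen with earlier results of these data known. Named were the 20 genes highest by CPM, the 10 highest per length, the 10 highest and 5 lowest CVs from 10 CPM, genes with at least 100 counts in 1 library and at most 3 in another, and list genes. From lists of more than 10 genes the rule names up to 6, and the others named were chosen after their values were seen. Some list genes enter the sums and are not reported here by name.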

Additional observations from a re-analysis of the deposited data

Results flagged for a closer look

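Of 81 sets of 4 values examined, 9 had 1 library set apart from the 3 others, by a gap beyond the critical value of the test of Dixon (gap over whole range), where chance gives about 1 in 20, or 4.05. This chance value does not apply to Igkv12-98, Igha, Igkc, Rgs16 and Repin1, which are 5 of the 9 and were chosen for their large CV. CTR3 was the library set apart in 7 of the 9.

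CTR3 stood above the others in the summed CPM of the B and plasma cell list (gap 0.981 of the range, 217 CPM) and in Igha (0.998, 91.5 CPM), Igkc (0.992, 84.7 CPM) and Igkv12-98 (1, 41.8 CPM), which are not independent of each other. It was also high in Repin1 (0.965, with 49.4 CPM against 6.30 to 7.80) and in Pecam1 (1, with 1.62 CPM against 0). In Hp it was low (0.833, with 4869.6 CPM against 7546 to 8081).

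CTR1 was high in the neutrophil list (0.850, with 145 CPM against 32.9 to 49.6), and CTR4 in Rgs16 (0.893, with 219.8 CPM against 16.3 to 38.1). No causes were tested.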

How the results depend on the processing

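The number of genes at 1 CPM or more in every CTR library was 12181, and 9968 to 15391 under the other thresholds, scalings and omissions. The share of counts in the 100 most abundant genes was 29.2% when the genes were ranked per length. The median CV was 18.3% from 1 CPM, 10.8% from 100 CPM and 20.2% over genes with a count in every library, and 13.4% to 14.1% with each library left out. Between title numbers edgeR called 6 genes among those with a mean of at least 10 CPM, DESeq2's Wald test called 134, and edgeR called 0 to 3 with each library left out (1 without CTR replicate 1 and 3 without CTR replicate 2), where one side is a single library assumed to vary like the other side. The cause was not tested. The hematopoietic sum was 301 to 415 CPM with each library left out and 304 CPM without the immunoglobulin genes. Under the 2 other scalings, 142 of 142 values of 71 named genes and lists lay within 1 SD. With a library left out, the mean CPM of Igha was 0.051, of Igkc 0.436 and of Igkv12-98 0 without CTR3 (22.9, 21.5 and 10.5 with it), of Repin1 7.27 without CTR3 (17.8), of Gm15564 74.6 and Gm20716 8.89 without CTR3 (128 and 15.01), of Rgs16 27.9 without CTR4 (75.8), of Sept2 26.8 without CTR1 (68.0), and of Gm28036 7.74 and Pcdhga9 62.3 without CTR2 (21.2 and 113.6). Depth limits genes of low level most, and 6.24% of those at 1 to 10 CPM had a library at 0. No paired analysis was possible because the comparison between title numbers has no replicate number shared by its 2 sides.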

Other observations

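Nnt, the mitochondrial transhydrogenase gene that carries a deletion in some C57BL/6 substrains, had 337, 193, 1146 and 111 counts in CTR1 to CTR4. Pttg1, a securin gene, had 698, 76, 1320 and 21 counts. Both were chosen after their values were seen.

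Of the raw counts between 4 and 40, 54.1% were odd numbers. The counting that gives this was not determined.

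Of the 171 genes present in one CTR library and absent from another, 77 were at or below 3 counts in CTR1, 28 in CTR2, 79 in CTR3 and 49 in CTR4.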
